A study of Homo sapiens with 12 samples.

Results

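The proteasome is the protease that degrades most ubiquitin-tagged proteins in human cells, and its transcripts were described here in 2 lines of HCT116, a human colon cancer line, with and without depletion of Mina53. The members were all genes of the deposited expression table whose symbol begins with PSM, followed by a letter from A to G and a number, without PSMB8 and PSMB9. The rule uses names only and found 46 of 36615 genes. Of these, 44 passed the filter on low values (at least 1 FPKM in at least 3 libraries), and PSMA8 and PSMB11 did not. FPKM count fragments per length of transcript and per size of library.

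The 20S core is a stack of rings of alpha subunits (PSMA genes) around rings of beta subunits (PSMB genes), and PSMB5, PSMB6 and PSMB7 carry its constitutive proteolytic sites. The 19S regulatory particle caps the core: its base holds a ring of ATPases (PSMC genes) that unfold the substrate, and its lid holds the deubiquitinase PSMD14 and its scaffold. Dedicated chaperones assemble both parts, other activators (PSME genes) can take the place of the cap, and the transcription factor NFE2L1 is known to raise proteasome genes together when proteolysis is short. Depletion was aimed at Mina53, a JmjC oxygenase of the nucleolus encoded by RIOX2.

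Poly(A) RNA of 12 libraries was sequenced. The p53+/+ line (labelled p53 WT) and the p53-/- line (labelled p53 null) each gave 3 scrambled controls, labelled scr, and 3 libraries with Mina53 depleted, labelled KD. What reagent depleted Mina53, when cells were harvested and whether replicates were separate cultures is not stated in the labels, so p-values cover only how far these libraries differ among themselves, and that spread may be technical. Each genotype is 1 line, so an effect of p53 and any other difference between the lines cannot be told apart. The data are bulk, and fewer cells of a kind cannot be told apart from less RNA per cell.

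Library totals lay between 367549 and 372821 FPKM in p53+/+ libraries and between 348822 and 354992 in p53-/- libraries. The lines did not overlap in this total, and its part in the difference between them was not tested. RIOX2 was at 7.44, 7.27 and 7.77 FPKM in p53+/+ controls and at 3.04, 2.63 and 2.48 after depletion, and at 9.31, 8.89 and 9.07 in p53-/- controls and at 2.11, 2.21 and 1.75 after depletion, so the groups did not overlap in either line. Of 10 epithelial and colon markers in the table, 7 reached a group mean of 1 FPKM, among them EPCAM, KRT8 and CDX2, while VIL1, CDH17 and LGR5 lay below 0.14 FPKM in every library. The immune, endothelial, neuronal and liver lists each summed to at most 1.13 FPKM in any library, and of 3 erythroid markers HBA1 alone reached a group mean of 1. Of 5 fibroblast markers in the table only COL1A1 did; the list summed to 6.75 to 7.62 FPKM in controls and 10.2 to 12.2 in depleted libraries, and its part in the results was not tested. The 13 protein-coding mitochondrial transcripts took 14.1% ± 0.270 of the total in p53+/+ controls and 18.6% ± 0.737 after depletion, and 10.5% ± 0.476 and 14.1% ± 0.284 in p53-/- cells (SD, n = 3), and since FPKM share 1 total this moves with every depletion result given here.

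The transcripts of the complex spanned a wide range per length. In p53+/+ controls the highest member was PSMA7, an alpha subunit, at 173 ± 5.91 FPKM (SD, n = 3), and the lowest past the filter was the chaperone PSMG4 at 6.48 ± 0.235, a ratio of 26.7. Among the 14 constitutive core subunits, which the particle holds in equal number, levels ran from 17.6 FPKM for PSMA5 to 173 for PSMA7, with a median of 94.9. The 9 base subunits ran from 14.9 FPKM for the ATPase PSMC6 to 111.8 for the scaffold PSMD2 (median 46.5), and the 8 lid subunits from 23.99 for PSMD12 to 73.6 for PSMD8 (median 44.2). The order of the levels was nearly kept across groups: Spearman's rho of group means over the 44 members lay between 0.963 and 0.982, over genes that share libraries. PSMA8, the testis alpha subunit, was at or below 0.0257 FPKM in every library and PSMB11, the thymic beta subunit, at or below 0.114. PSMB8 and PSMB9, the inducible subunits that the rule leaves out, were at 0.324 ± 0.06997 and 2.33 ± 0.366 FPKM in p53+/+ controls and at 0.163 ± 0.0237 and 6.36 ± 0.484 in p53-/- controls.

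**Figure D1:**
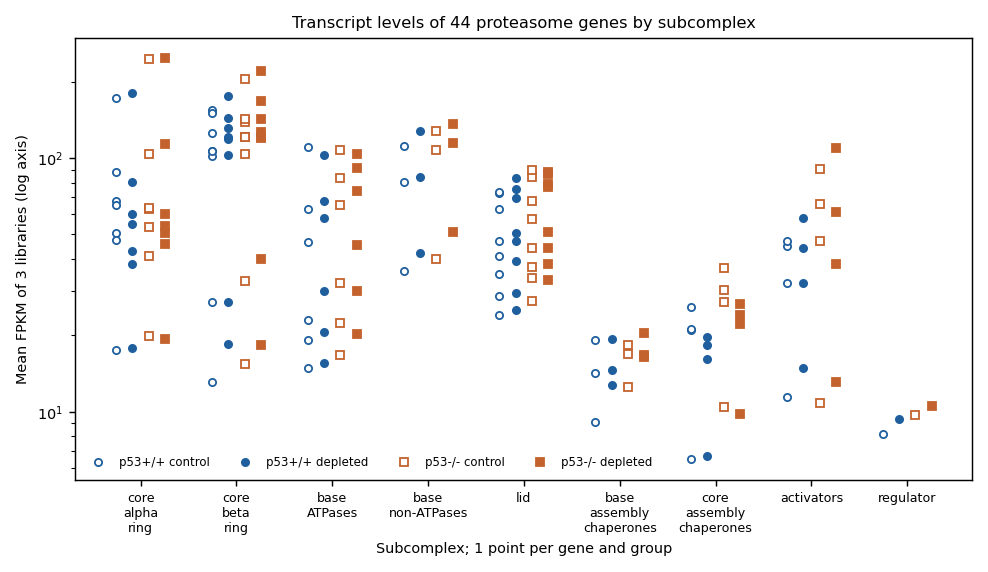
Mean FPKM of each of the 44 members past the filter (log axis) by subcomplex, with 1 point per gene and group (circles p53+/+, squares p53-/-, open control, filled depleted). Levels ran from 6.48 FPKM for PSMG4 to 173 for PSMA7 in p53+/+ controls.

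Depletion of Mina53 in p53+/+ cells went with modest rises of most 19S and beta ring genes that changed. It also went with falls of some alpha ring genes and of the core assembly chaperones PSMG1 and PSMG2. Of the 44 members tested, 24 passed at an adjusted p under 0.05 (limma with Benjamini-Hochberg adjustment), against 60.7% of all 13728 genes tested; 17 were higher and 7 lower, and none moved by a log2 fold change of 0.5 or more. The 17 rises are 38.6% of the members, against 28.5% of all genes, and the 7 falls are 15.9% against 32.2%. The median log2 fold change was 0.064 over the members and -0.016 over all genes. After removal of mitochondrial genes and rescaling, 23 members were higher and 4 lower, and the shares of all genes moved as well, to 34.1% higher and 25.7% lower.

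Depletion in p53-/- cells went with rises of 5 of 6 ATPases and 6 of 8 lid genes. It also went with falls of 3 of the 4 PSMG genes, which encode core assembly chaperones. There 32 of 44 members passed, against 58.8% of all genes; 24 were higher and 8 lower, and none reached a log2 fold change of 0.5. The rises are 54.5% of the members against 28.9% of all genes, and the falls 18.2% against 29.9%, with a median of 0.13 over the members and -0.0028 over all genes. With mitochondrial genes left out, 27 members were higher and 6 lower, against 33.1% and 24.6% of all genes. The count of rises also depended on single libraries. Without p53-/- control replicate 3, 18 members were higher and 6 lower (28.1% and 27.4% of all genes). Without p53-/- depleted replicate 3, 19 were higher and 7 lower (27.4% and 27.9%). Each line was set against its own controls. In both, 15 members were higher (34.1%, against 18.5% of all genes) and 4 were lower (9.09%, against 20.7%), and 1 of the members, PSMA1, went in opposite directions. The effects in the lines had a Pearson correlation of 0.713 over the 44 members and of 0.688 over all genes, where genes are not independent replicates.

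Most members are abundant, and abundant genes pass the test more often. Of the 2836 genes with a mean of at least 20 FPKM, 32.3% were higher and 41.7% lower in p53+/+ depletion, and 33.5% and 37.2% in p53-/- depletion. For the 35 members of that class, the counts were 13 higher and 7 lower in p53+/+ cells and 19 higher and 8 lower in p53-/- cells.

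**Figure D2:**
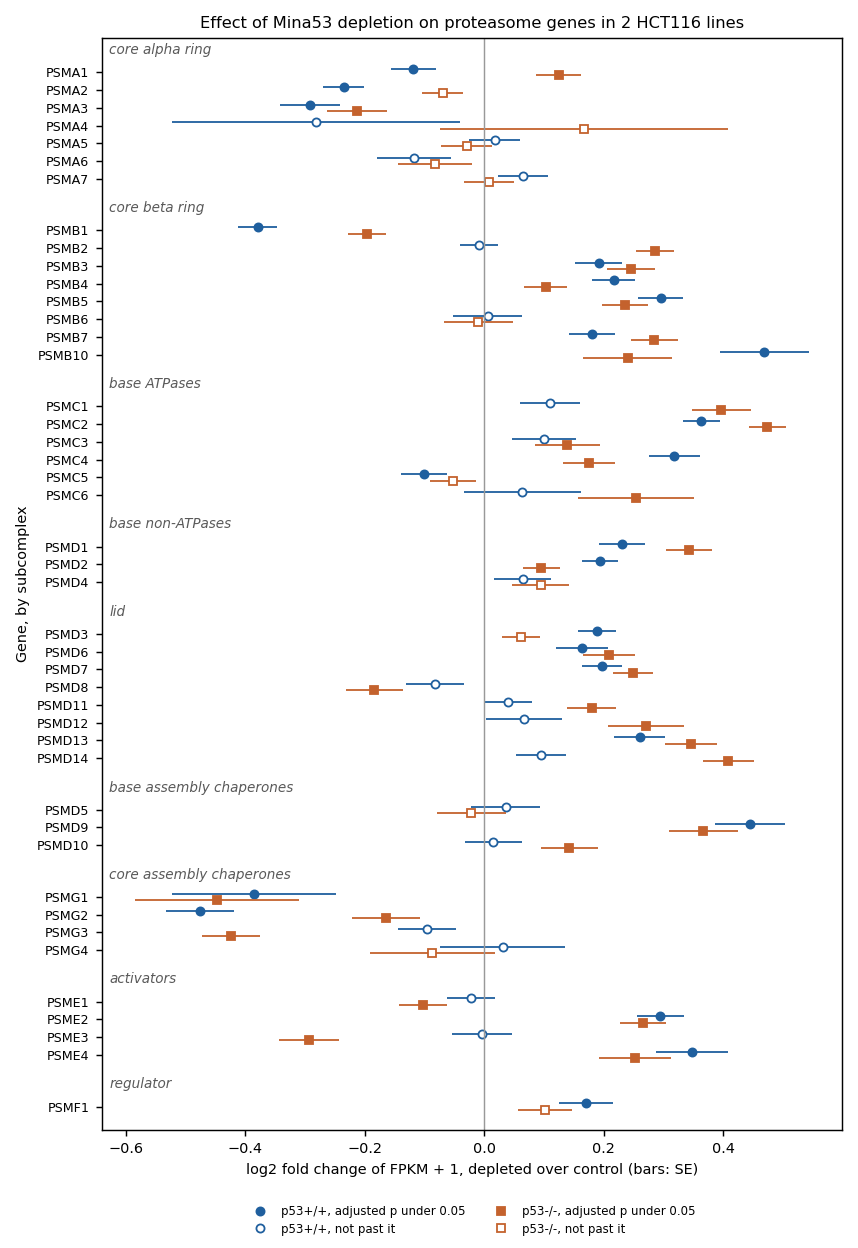
Log2 fold change of FPKM + 1 (depleted over control, bars SE) of the 44 members in p53+/+ cells (blue circles) and p53-/- cells (orange squares), by subcomplex; filled symbols passed an adjusted p of 0.05. Most base and lid genes lie to the right of 0, and PSMG1, PSMG2, PSMB1 and PSMA3 lie to the left in both lines.

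The alpha ring, which gates entry to the core, held no rise in p53+/+ cells: PSMA1, PSMA2 and PSMA3 fell and the other 4 did not pass. The 3 falls are 42.9% of the 7 genes tested, against 32.2% of all genes and 41.7% of the 2836 abundant genes. Under alternatives, PSMA7 rose with mitochondrial genes left out (log2 change 0.14, adjusted p = 0.00814) and PSMA6 fell with only the compared groups in the fit (adjusted p = 0.0247) or without p53-/- depleted replicate 1 (0.01515). Without that library PSMA6 also fell in p53-/- cells (log2 change -0.17, adjusted p = 0.00391). In the main fit, 1 alpha ring gene rose and 1 fell in p53-/- cells (14.3% each, against 28.9% and 29.9% of all genes). PSMA3 was at 67.8, 68.8 and 65.7 FPKM in p53+/+ controls and at 58.1, 55.4 and 51.5 after depletion (log2 fold change -0.29, SE 0.0503, adjusted p = 0.000306, limma with Benjamini-Hochberg adjustment). It was at 61.2, 63.2 and 64.2 FPKM in p53-/- controls and at 52.97, 57.9 and 51.6 after depletion (log2 fold change -0.21, SE 0.0503, adjusted p = 0.0031). All depleted libraries lay below all controls in each line. PSMA3 overlaps the noncoding gene PSMA3-AS1, which was at 4.33 ± 0.433 and 6.78 ± 0.237 FPKM in p53-/- controls and depleted cells, and without known strand their reads cannot be told apart.

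PSMA1 fell in p53+/+ cells, from 86.3, 88.7 and 88.00 to 84.9, 80.3 and 76.8 FPKM (log2 change -0.12, adjusted p = 0.0162), and rose in p53-/- cells, from 104, 103 and 105 to 112, 118 and 111 (log2 change 0.12, adjusted p = 0.0134). The groups did not overlap, but both changes are small. The fall was lost with mitochondrial genes left out (log2 fold change -0.042, adjusted p = 0.399), without p53+/+ control replicate 2 (adjusted p = 0.0514) or without p53+/+ depleted replicate 3 (0.06985), and the rise without p53-/- depleted replicate 2 (adjusted p = 0.0623). PSMA4, another alpha subunit, varied widely between replicates: it was at 62.8, 41.6 and 38.1 FPKM in p53+/+ controls, 42.2, 40.1 and 32.4 in p53+/+ depleted cells, 27.8, 46.4 and 49.00 in p53-/- controls and 36.01, 42.02 and 59.6 in p53-/- depleted cells. Its SD within groups (0.356 on the log2 scale) was larger than that of 99.4% of the 2836 genes with a mean of at least 20 FPKM and it passed in no comparison.

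Of the 8 beta ring genes tested, 5 rose and 1 fell in p53+/+ cells, and 6 rose and 1 fell in p53-/- cells, where rises took in 28.5% and 28.9% of all genes and falls 32.2% and 29.9%. PSMB5, the chymotrypsin-like site and the main target of proteasome inhibitors, was at 105, 106 and 108 FPKM in p53+/+ controls and at 131, 129.7 and 132 after depletion (log2 fold change 0.30, SE 0.0379, adjusted p = 2.70e-05). Among p53-/- libraries it was at 126, 117 and 119.9 in controls and 139, 138 and 151 after depletion (log2 fold change 0.24, SE 0.0379, adjusted p = 0.000192). All depleted libraries were above all controls of their line. PSMB7, the trypsin-like site, was at 109, 107 and 103 in controls and 116, 119 and 127 after depletion (FPKM) in p53+/+ cells (log2 change 0.18, adjusted p = 0.001545) and at 106, 104 and 102 in controls and 129, 123 and 129 after depletion in p53-/- cells (log2 change 0.28, adjusted p = 5.07e-05), again with no overlap. PSMB6, the caspase-like site, did not pass in either line, with 104, 105 and 98.1 against 101, 99.3 and 107 FPKM in p53+/+ cells (log2 change 0.0058, adjusted p = 0.939) and 129.9, 121 and 112 against 119, 113 and 128 in p53-/- cells (log2 change -0.01, adjusted p = 0.8935), and its libraries overlapped.

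PSMB10, the inducible counterpart of PSMB7 in the immunoproteasome, was at 12.6, 12.7 and 13.96 FPKM in p53+/+ controls and at 17.5, 18.3 and 19.8 after depletion (log2 fold change 0.47, SE 0.0744, adjusted p = 0.000156), the largest rise among the members in that line. For p53-/- cells the values were 17.4, 14.1 and 14.8 in controls and 17.8, 17.8 and 19.6 after depletion (log2 change 0.24, adjusted p = 0.0151). Every depleted library was above the controls of its line, but the p53-/- call was lost without p53-/- control replicate 2 (adjusted p = 0.0684), control replicate 3 (0.0519) or depleted replicate 3 (0.062) and without the filter on low values (0.0522). PSMB1, a structural beta subunit, went the other way, from 153, 152 and 158 to 116, 119.9 and 119.9 FPKM in p53+/+ cells (log2 fold change -0.38, SE 0.0323, adjusted p = 8.00e-07) and from 138, 141 and 137 to 118, 119.7 and 126 in p53-/- cells (log2 fold change -0.20, SE 0.0323, adjusted p = 0.000234). The structural subunits PSMB3 and PSMB4 rose in both lines by log2 fold changes between 0.10 and 0.25. The lowest of these, PSMB4 in p53-/- cells, was lost without p53-/- control replicate 2 (adjusted p = 0.095), control replicate 3 (0.0832) or depleted replicate 3 (0.088). PSMB2 was at 27.1 ± 0.151 and 26.95 ± 0.297 FPKM in p53+/+ cells (log2 change -0.0087, adjusted p = 0.825) and rose from 32.7 ± 0.712 to 40.1 ± 0.914 in p53-/- cells (log2 change 0.29, adjusted p = 8.20e-06).

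**Figure D3:**
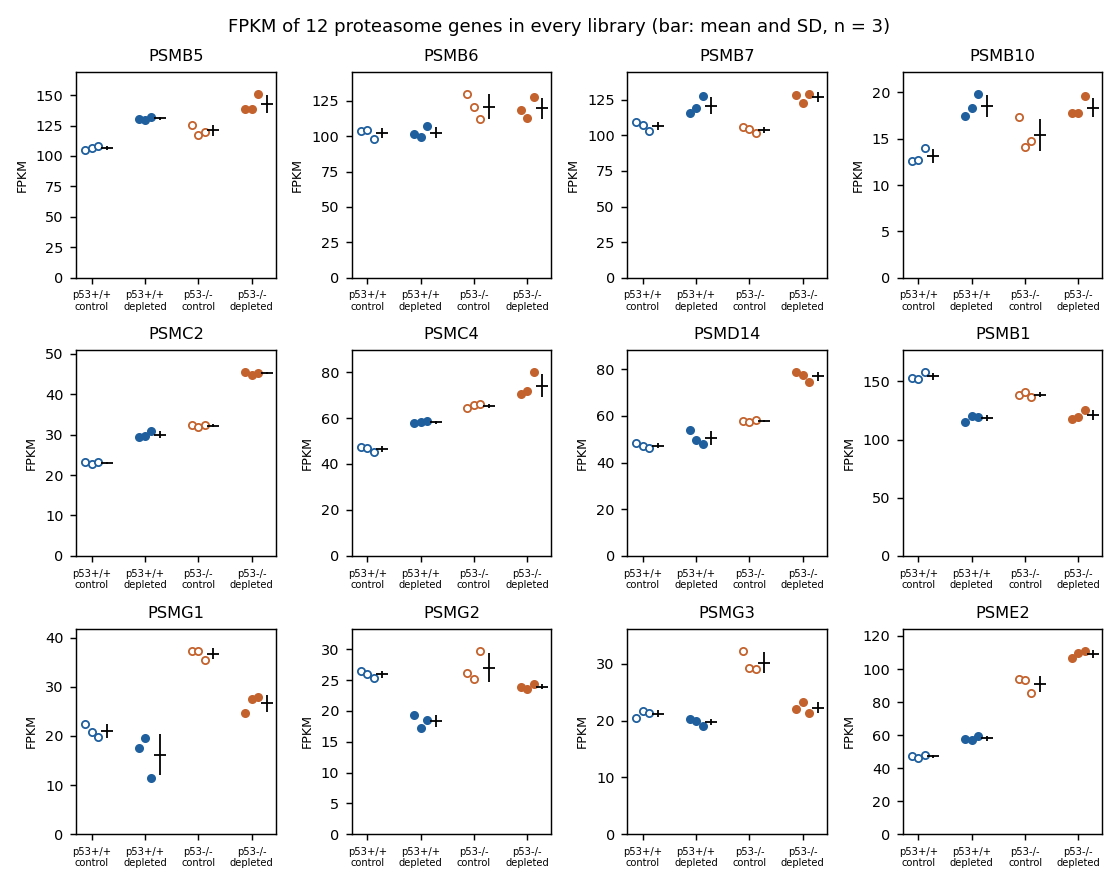
FPKM of 12 members in each of the 12 libraries (axes from 0; blue p53+/+, orange p53-/-; open control, filled depleted; bar mean and SD, n = 3). PSMC2 and PSMC4 step up with depletion in both lines, PSMB1 and PSMG1 step down, and PSME2 separates the lines, at 46.1 to 59.6 FPKM in p53+/+ and 85.3 to 111.2 in p53-/- libraries.

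Of the 6 base ATPases, 2 rose and 1 fell in p53+/+ cells (33.3% and 16.7%, against 28.5% and 32.2% of all genes), and 5 rose and 0 fell in p53-/- cells (83.3% rose, against 28.9%). PSMC2 was at 23.3, 22.8 and 23.1 FPKM in p53+/+ controls and at 29.3, 29.6 and 30.97 after depletion (log2 fold change 0.36, SE 0.0311, adjusted p = 8.35e-07). It also went up in p53-/- cells, from 32.5, 31.9 and 32.4 to 45.4, 44.9 and 45.3 FPKM (log2 fold change 0.47, SE 0.0311, adjusted p = 1.05e-07), the largest rise of any member there. PSMC2 overlaps the gene PMPCB, which reached 12.7 FPKM, in the RefSeq table. PSMC4 rose from 46.5 ± 1.22 to 58.2 ± 0.616 FPKM in p53+/+ cells (log2 change 0.32, adjusted p = 4.13e-05) and in p53-/- cells from 65.4 ± 0.837 to 74.1 ± 5.05 (log2 change 0.18, adjusted p = 0.003885).

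PSMC1 was at 19.1, 18.6 and 19.5 in controls and 21.9, 20.9 and 19.3 after depletion (FPKM) in p53+/+ cells (log2 change 0.11, adjusted p = 0.0744), where one depleted library fell among the controls, and at 21.8, 22.8 and 22.7 in controls and 28.8, 31.7 and 29.2 after depletion in p53-/- cells (log2 fold change 0.40, SE 0.04997, adjusted p = 2.67e-05), where none did. The p53+/+ value passed without depleted replicate 3 (adjusted p = 0.0167) and with either other scaling, TMM-type factors, which match libraries on the bulk of their genes, or removal of mitochondrial genes (adjusted p = 0.0228 and 0.0102). Its pseudogene PSMC1P1 held at most 13.0% of the level of PSMC1, and reads may be shared. PSMC3 (log2 change 0.14, adjusted p = 0.0422) and PSMC6 (log2 change 0.25, adjusted p = 0.0411) rose in p53-/- cells and PSMC5 fell in p53+/+ cells (log2 change -0.10, adjusted p = 0.037), each close to the threshold. The call for PSMC3 was lost without any one of 6 libraries: 3 were p53+/+ libraries, which left its log2 change at 0.14 (adjusted p up to 0.0531), and without p53-/- control replicate 3 the change was 0.073 (adjusted p = 0.179). The call for PSMC6 was lost without any one of 6 libraries as well (adjusted p up to 0.128), with log2 changes of 0.21 to 0.28. That for PSMC5 was lost without p53+/+ control replicate 1 or 3 or depleted replicate 2, with log2 changes of -0.091 to -0.074 (adjusted p up to 0.152), and with either other scaling (log2 change -0.024, adjusted p = 0.595 with mitochondrial genes left out). PSMC5 overlaps FTSJ3, which reached 39.3 FPKM. Of the other base subunits, the scaffolds PSMD1 and PSMD2 rose in both lines, by 0.23 and 0.19 on the log2 scale in p53+/+ cells and by 0.34 and 0.10 in p53-/- cells. The last value was lost without p53-/- control replicate 2 (adjusted p = 0.0687), control replicate 3 (0.0508) or depleted replicate 3 (0.0637). The ubiquitin receptor PSMD4 did not pass in either line (log2 change 0.064, adjusted p = 0.264 in p53+/+ cells and log2 change 0.095, adjusted p = 0.106 in p53-/- cells), and it passed in both with mitochondrial genes left out (adjusted p = 0.0164 and 0.01095).

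Lid genes rose in 4 of 8 cases in p53+/+ cells with 0 falls, and in 6 of 8 cases in p53-/- cells with 1 fall. The shares of all genes were 28.5% rising and 32.2% falling in the p53+/+ line, against 28.9% and 29.9% in the p53-/- line. PSMD14, the deubiquitinase that removes ubiquitin chains before degradation, was at 57.7, 57.2 and 58.2 FPKM in p53-/- controls and at 78.7, 77.5 and 74.7 after depletion (log2 fold change 0.41, SE 0.0419, adjusted p = 4.80e-06). Its p53+/+ values were 48.6, 47.1 and 46.2 in controls and 54.02, 49.8 and 47.99 after depletion, in FPKM (log2 change 0.095, adjusted p = 0.0693), with 1 depleted library inside the control range. That value passed without depleted replicate 3 (adjusted p = 0.0187) and with either other scaling (adjusted p = 0.0186 and 0.00571). The structural lid subunits PSMD6, PSMD7 and PSMD13 rose in both lines by log2 fold changes between 0.16 and 0.35. PSMD3 rose in p53+/+ cells, from 72.7 ± 1.63 to 83.03 ± 0.958 FPKM (log2 change 0.19, adjusted p = 0.000258), and did not pass at 84.3 ± 2.72 and 88.1 ± 1.59 in p53-/- cells (log2 change 0.062, adjusted p = 0.116), where it rose with mitochondrial genes left out (log2 change 0.12, adjusted p = 0.00423). PSMD8 fell in p53-/- cells, from 89.5 ± 3.62 to 78.7 ± 5.803 FPKM (log2 change -0.18, adjusted p = 0.0056), and PSMD11 and PSMD12 rose there by 0.18 and 0.27 on the log2 scale.

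Among the members, the core assembly chaperones that passed fell and the base assembly chaperones that passed rose, in both lines. Genes outside the rule did not follow this split. POMP, the chaperone that completes the core, rose in p53+/+ and p53-/- cells (log2 changes 0.21 and 0.56). PAAF1, which binds the ATPases, fell in both (-0.82 and -0.36). PSMG1 and PSMG2 form the dimer that starts the alpha ring, and both fell in both lines. PSMG2 was at 26.4, 25.9 and 25.4 FPKM in p53+/+ controls and at 19.3, 17.3 and 18.5 after depletion (log2 fold change -0.48, SE 0.0574, adjusted p = 1.61e-05), the largest fall of any member there. The p53-/- libraries held 26.1, 25.2 and 29.8 in controls and 23.9, 23.6 and 24.3 after depletion, in FPKM (log2 change -0.16, adjusted p = 0.0268). Groups did not overlap, but the p53-/- call was lost without p53-/- control replicate 3 (log2 fold change -0.10, adjusted p = 0.111), depleted replicate 1 (0.06005) or depleted replicate 2 (0.07355). It was also lost after removal of mitochondrial genes (0.138) and without the filter on low values (0.0721). PSMG2 overlaps SPIRE1 and CEP76 in the RefSeq table, which reached group means of 5.81 and 5.06 FPKM.

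PSMG1 was at 22.4, 20.9 and 19.7 FPKM in p53+/+ controls and at 17.5, 19.5 and 11.5 after depletion (log2 fold change -0.39, SE 0.137, adjusted p = 0.0282). Its p53-/- libraries went from 37.4, 37.3 and 35.4 to 24.7, 27.5 and 27.9 FPKM (log2 fold change -0.45, SE 0.137, adjusted p = 0.0144), the largest fall there. Depleted replicate 3 of the p53+/+ line lay far below its group, and the depleted libraries were below the controls in both lines. Without that library the p53+/+ fall was smaller (log2 fold change -0.17, adjusted p = 0.0491). The p53+/+ call was lost without control replicate 1 (adjusted p = 0.0868) or control replicate 2 (0.0592) and with mitochondrial genes left out (0.0727). It was also lost without the filter on low values (0.102) and with only the groups compared (0.0701). The p53-/- call was lost without depleted replicate 1 (adjusted p = 0.0533) and without the filter (0.0626).

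PSMG3 and PSMG4 form the other core assembly pair. PSMG3 was at 20.5, 21.7 and 21.4 in controls and 20.2, 19.9 and 19.1 after depletion (FPKM) in p53+/+ cells, which did not overlap but did not pass (log2 change -0.10, adjusted p = 0.107), and went from 32.3, 29.2 and 29.03 to 22.1, 23.3 and 21.4 in p53-/- cells (log2 fold change -0.42, SE 0.0486, adjusted p = 1.25e-05). PSMG4, the lowest member past the filter in 3 of the groups, was at 6.28, 6.43 and 6.74 in controls and 6.18, 8.13 and 5.82 after depletion (FPKM) in p53+/+ cells and at 10.2, 10.4 and 10.7 in controls and 9.83, 8.45 and 11.2 after depletion in p53-/- cells, with overlap in each line and no pass (adjusted p = 0.814 and 0.502). Among the chaperones of the base, PSMD9 rose in both lines, from 9.22, 8.57 and 9.57 to 12.2, 12.7 and 13.3 FPKM in p53+/+ cells (log2 fold change 0.44, SE 0.0579, adjusted p = 3.05e-05) and from 13.4, 12.1 and 11.9 to 15.4, 16.99 and 16.7 in p53-/- cells (log2 fold change 0.37, SE 0.0579, adjusted p = 0.000166). All depleted libraries were above all controls. PSMD10, also known as gankyrin, rose in p53-/- cells (log2 change 0.14, adjusted p = 0.0222) and did not pass in p53+/+ cells (adjusted p = 0.802); the rise was lost without control replicate 3 (adjusted p = 0.0705) or depleted replicate 2 (0.0935). PSMD5 did not pass in either line (adjusted p = 0.612 in p53+/+ and 0.769 in p53-/- cells).

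Activators that open the core without ATP moved in both directions. PSME2, the beta subunit of PA28 and an interferon-inducible gene, rose in both lines, from 47.2, 46.1 and 47.8 to 57.4, 56.8 and 59.6 FPKM in p53+/+ cells (log2 fold change 0.29, SE 0.0391, adjusted p = 3.61e-05) and from 93.7, 93.3 and 85.3 to 107, 109.9 and 111 in p53-/- cells (log2 fold change 0.27, SE 0.0391, adjusted p = 9.62e-05). Its partner PSME1 was at 45.1 ± 2.14 and 44.4 ± 1.94 FPKM in p53+/+ cells (no pass, adjusted p = 0.648) and at 65.7 ± 0.856 and 61.1 ± 0.272 in p53-/- cells, a fall at an adjusted p of 0.0433 that was lost in each scaling alternative (adjusted p = 0.0935 and 0.393) and without any one of 8 libraries. PSME4, the nuclear activator PA200, rose by 0.35 and 0.25 on the log2 scale in p53+/+ and p53-/- cells. PSME3, the nuclear PA28 gamma, was at 31.02, 31.97 and 33.6 in controls and 34.1, 31.8 and 30.5 after depletion (FPKM) in p53+/+ cells (log2 change -0.0037, adjusted p = 0.954) and fell from 44.8, 46.5 and 49.6 to 37.99, 38.9 and 37.4 in p53-/- cells (log2 fold change -0.29, SE 0.0497, adjusted p = 0.000287). PSMF1, which binds the core and is known as PI31, rose in p53+/+ cells (log2 change 0.17, adjusted p = 0.00589) and did not pass in p53-/- cells (log2 change 0.10, adjusted p = 0.0697), except with mitochondrial genes left out (log2 change 0.16, adjusted p = 0.00927) or without control replicate 1 (adjusted p = 0.0445).

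Levels were also summed over the subunits of each part. The 14 constitutive core transcripts summed to 1282 ± 16.6 FPKM in p53+/+ controls and 1294 ± 12.7 after depletion (mean ± SD, n = 3), with overlapping libraries. The 17 base and lid transcripts summed to 890.5 ± 13.3 and 969 ± 5.59 FPKM, without overlap. For p53-/- cells the core sum was 1454 ± 25.5 and 1530.0 ± 40.8 FPKM and the base and lid sum 1044 ± 24.5 and 1164 ± 19.04. The ratio of base and lid to core, which does not depend on the library total, was 0.695 ± 0.0116 and 0.749 ± 0.00381 in p53+/+ controls and depleted cells and 0.718 ± 0.00723 and 0.761 ± 0.00775 in p53-/- controls and depleted cells. Both sums were without overlap in p53-/- cells. In each line the 3 depleted libraries had a higher ratio than the 3 controls. The sums are weighted to abundant members, and no test was made of them.

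**Figure D4:**
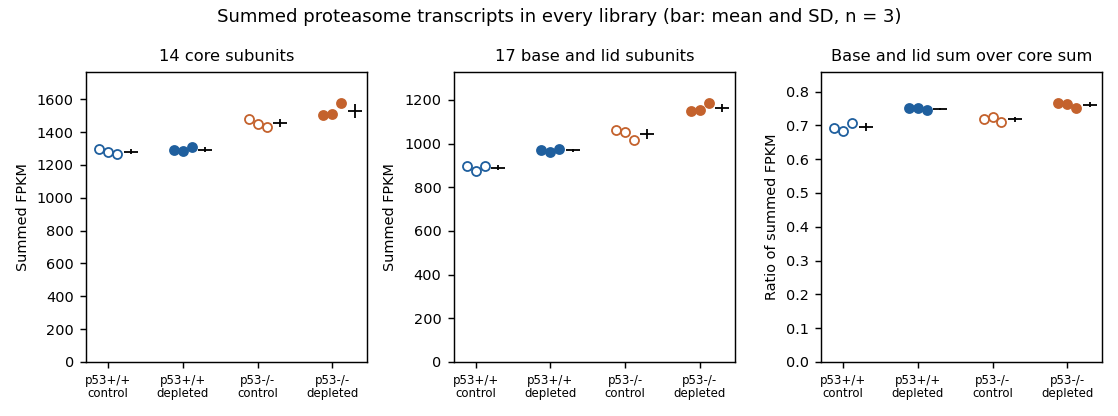
Summed FPKM of 14 core and of 17 base and lid transcripts and their ratio in each library (axes from 0; open control, filled depleted; bar mean and SD, n = 3). The ratio lies between 0.685 and 0.725 in the 6 control libraries and between 0.745 and 0.766 in the 6 depleted ones.

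Promoter windows of members that moved the same way in both lines are shown because NFE2L1 is known to act through antioxidant response elements in proteasome promoters. Windows hold the 250 bases before a RefSeq start (GRCh38.p14, credited to RefSeq; the expression data were made on hg19), and 48 windows of 40 members matched. Searches on both strands used TGACNNNGC, a core of that element, CCAAT, the box bound by NF-Y, and CACGTG, an E-box; no 2 of these words overlap in the windows printed. Capitals mark the matches, and the windows are from genes that rose (PSMC2, PSMD9 and PSMB3) and fell (PSMG1 and PSMG2) in both lines. Each window printed holds a match, so they are not typical of all members. Windows without a match are not printed, among them those of PSMC4 and PSMD13, which rose in both lines, and the second start of PSMG2.
PSMC2, chr7:103347393-103347642, plus strand: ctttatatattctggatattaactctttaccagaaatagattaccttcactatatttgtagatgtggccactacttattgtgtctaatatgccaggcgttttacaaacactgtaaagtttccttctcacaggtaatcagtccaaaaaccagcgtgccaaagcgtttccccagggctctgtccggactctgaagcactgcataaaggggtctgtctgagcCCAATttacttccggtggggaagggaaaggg
PSMD9, chr12:121888540-121888789, plus strand: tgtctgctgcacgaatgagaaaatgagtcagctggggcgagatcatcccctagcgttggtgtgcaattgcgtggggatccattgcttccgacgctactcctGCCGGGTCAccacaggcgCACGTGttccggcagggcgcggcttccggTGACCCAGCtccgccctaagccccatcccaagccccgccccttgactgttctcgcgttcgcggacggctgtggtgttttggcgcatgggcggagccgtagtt
PSMB3, chr17:38752491-38752740, plus strand: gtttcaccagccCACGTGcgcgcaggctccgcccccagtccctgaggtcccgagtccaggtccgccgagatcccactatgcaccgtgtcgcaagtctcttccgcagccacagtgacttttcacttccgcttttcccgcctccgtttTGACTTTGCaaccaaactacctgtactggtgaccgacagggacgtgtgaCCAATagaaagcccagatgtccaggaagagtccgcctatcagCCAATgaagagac
PSMG1, chr21:39183452-39183701, minus strand: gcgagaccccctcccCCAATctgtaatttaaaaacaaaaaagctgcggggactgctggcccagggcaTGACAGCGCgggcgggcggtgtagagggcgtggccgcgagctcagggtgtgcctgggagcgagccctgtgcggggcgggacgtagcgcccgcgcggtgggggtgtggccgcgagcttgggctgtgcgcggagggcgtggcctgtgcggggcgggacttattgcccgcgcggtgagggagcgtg
PSMG2, chr18:12658488-12658737, plus strand: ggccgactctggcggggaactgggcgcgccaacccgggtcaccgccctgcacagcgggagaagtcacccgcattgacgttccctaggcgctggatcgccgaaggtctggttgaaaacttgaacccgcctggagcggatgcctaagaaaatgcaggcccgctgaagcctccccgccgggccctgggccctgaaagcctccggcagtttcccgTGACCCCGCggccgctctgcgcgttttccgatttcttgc

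The antioxidant response core was found in 12 of 48 member windows (25.0%), against 10.9% of all 35116 windows of the same length, the CCAAT box in 18 (37.5%, against 32.0%) and the E-box in 3 (against 6.34%). The windows compared were not matched for base composition or expression, and no test was made of these shares. Of the 16 windows of genes that rose in both lines, 4 hold the antioxidant response core, from PSMB3, PSMD9, PSME2 and PSME4. It is also in 2 of the 4 windows of genes that fell in both lines, PSMG1 and the first of 2 starts of PSMG2. These counts leave out PSMB7, which rose in both lines, and PSMB1, which fell in both, since neither had a window. PSMC2, the member with the largest rise in p53-/- cells, has a CCAAT box and no match to the other words in its window. A match is a run of letters and shows no binding.

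Partners of the proteasome were followed through 36 genes of ubiquitin supply, shuttling, proteasome assembly and NFE2L1 processing. In p53+/+ cells 13 were higher and 10 lower, and in p53-/- cells 13 and 7, with medians of 0.055 and 0.054. These are 36.1% higher and 27.8% lower in p53+/+ cells, against 28.5% and 32.2% of all genes, and 36.1% and 19.4% in p53-/- cells, against 28.9% and 29.9%. NFE2L1 itself was at 41.00, 41.5 and 43.9 FPKM in p53+/+ controls and at 51.5, 54.7 and 53.6 after depletion (log2 fold change 0.33, SE 0.04198, adjusted p = 2.52e-05). Its p53-/- libraries were at 66.8, 62.4 and 65.1 in controls and 68.6, 64.3 and 69.4 after depletion (log2 change 0.057, adjusted p = 0.262), with overlap. DDI2, the protease that activates the NFE2L1 protein, was lower in both lines (log2 change -0.18, adjusted p = 0.0449 in p53+/+ cells and log2 change -0.29, adjusted p = 0.00473 in p53-/- cells). NGLY1, a glycanase that matures the same protein, rose in p53-/- cells (limma, log2 change 0.32, adjusted p = 4.46e-05). It did not pass in p53+/+ cells (limma, log2 change 0.058, adjusted p = 0.266). The p53+/+ value of DDI2 is close to the threshold, and calls of partner genes were not followed through the alternatives.

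POMP, the chaperone that completes the core, rose from 45.3 ± 1.59 to 52.8 ± 3.88 FPKM in p53+/+ cells (log2 change 0.21, adjusted p = 0.01075) and in p53-/- cells from 45.4 ± 3.504 to 67.2 ± 2.75 (log2 change 0.56, adjusted p = 1.04e-05). AKIRIN2, which brings proteasomes into the nucleus, rose by 0.45 and 0.68 on the log2 scale in p53+/+ and p53-/- cells. In p53+/+ cells NPLOC4, a cofactor of the segregase VCP, followed at a log2 change of 0.43. The largest falls in p53+/+ cells were PAAF1, which binds the ATPases, from 2.42 ± 0.0622 to 0.946 ± 0.238 FPKM, and FBXO7, a partner of PSMF1, from 28.2 ± 1.01 to 18.1 ± 0.166. Those in p53-/- cells were FBXO7, from 32.6 ± 0.658 to 15.96 ± 1.499 FPKM, and the ubiquitin-activating enzyme UBA1, from 129 ± 0.842 to 82.7 ± 4.65. The last 2 subunits of the 19S particle outside the rule are the base receptor ADRM1 and the lid peptide SEM1. ADRM1 rose in p53+/+ cells (log2 change 0.24, adjusted p = 0.00135) and in p53-/- cells (log2 change 0.15, adjusted p = 0.0253). The p53-/- groups overlapped, since depleted replicate 1, at 119.1 FPKM, lay within the control range of 109.6 to 120.2. SEM1 rose in p53-/- cells (log2 change 0.18, adjusted p = 0.00236) and did not pass in p53+/+ cells (log2 change 0.024, adjusted p = 0.631). UBB, a polyubiquitin gene, rose in p53+/+ cells (log2 change 0.32, adjusted p = 1.05e-05) and was at 956 ± 29.6 and 922 ± 36.4 FPKM in p53-/- cells (log2 change -0.052, adjusted p = 0.234).

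Whether the lines responded unequally was tested by subtracting the p53+/+ effect from the p53-/- effect, a contrast that shares its libraries with those above. Of 44 members 10 passed, against 32.9% of all genes: 7 had a higher and 3 a lower effect in p53-/- cells, or 15.9% and 6.82%, against 16.7% and 16.2% of all genes. With mitochondrial genes left out the counts were 7 and 5. PSMD14 (log2 difference 0.31, SE 0.0592, adjusted p = 0.00182), PSMG2 (log2 difference 0.31, SE 0.0812, adjusted p = 0.0119) and PSMB2 (log2 difference 0.29, SE 0.0441, adjusted p = 0.000416) had the largest positive differences past the threshold, from a rise, a smaller fall and a rise in p53-/- cells. PSMG3 (log2 difference -0.33, SE 0.0688, adjusted p = 0.00349), PSME3 (log2 difference -0.29, SE 0.0703, adjusted p = 0.00808) and PSMD3 (log2 difference -0.13, SE 0.0452, adjusted p = 0.0485) had the negative ones. The call for PSMD3 was lost without any one of 10 libraries, with adjusted p up to 0.113. Among partner genes, on the same scale, ECPAS, a proteasome adaptor (0.48), and POMP (0.34) had the largest positive differences past the threshold, and UBA1 (-0.47) and FBXO7 (-0.37) the largest negative ones.

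Control cells of the lines already differed. Of 44 members 34 passed, against 63.4% of all genes: 32 were higher and 2 lower in p53-/- than in p53+/+ controls, or 72.7% and 4.55%, against 36.7% and 26.6% of all genes and 52.0% and 23.8% of the 2836 genes with a mean of at least 20 FPKM. The median over the members was 0.22, and over all genes 0.058. TMM-type scaling gave 26 higher and 7 lower members, and leaving out mitochondrial genes 29 and 6. The shares of all genes moved too, to 30.1% higher and 32.0% lower with the former and to 30.9% and 29.8% with the latter. Mitochondrial transcripts took less of the total in p53-/- controls, and their part in the difference was not tested beyond that rescaling.

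PSME2 differed most between the controls, at 46.1 to 47.8 FPKM in p53+/+ and 85.3 to 93.7 in p53-/- libraries (log2 fold change 0.93, SE 0.0391, adjusted p = 1.77e-09). Next came PSMG1, at 20.99 ± 1.36 and 36.7 ± 1.102 FPKM (log2 fold change 0.78, SE 0.137, adjusted p = 0.000333), and PSMG4, at 6.48 ± 0.235 and 10.4 ± 0.251 (log2 fold change 0.61, SE 0.105, adjusted p = 0.000271). None of these groups overlapped. On the log2 scale, PSME1 (0.53), PSME3 (0.53) and PSMG3 (0.49) were higher as well, and PSMG2 was not (log2 change 0.056, adjusted p = 0.419). Among core and 19S subunits, PSMA7 (0.50), PSMC4 (0.48), PSMC2 (0.47) and PSMB4 (0.45) had the largest log2 differences. The calls for PSMD12 and PSMD13 were lost without any one of 3 and of 6 libraries, and with either other scaling. PSMB5 (log2 change 0.18, adjusted p = 0.0011, and log2 fold change 0.11 with TMM-type scaling) and PSMB6 (log2 change 0.24, adjusted p = 0.00315) were higher and PSMB7 did not pass (log2 change -0.034, adjusted p = 0.461); PSMB7 was lower with either other scaling (adjusted p = 0.045 and 0.0347). PSMB10 was higher (log2 change 0.22, adjusted p = 0.0226), a call lost without p53+/+ control replicate 1 (adjusted p = 0.0727) or 2 (0.0682), without p53-/- control replicate 1 (0.101) and with either other scaling. The only members lower in p53-/- controls were PSMB1, at 153, 152 and 158 in p53+/+ and 138, 141 and 137 in p53-/- libraries, in FPKM (log2 change -0.15, adjusted p = 0.00131), and PSMD7, at 40.2, 41.8 and 41.2 in p53+/+ and 38.2, 37.5 and 35.7 in p53-/- libraries (log2 change -0.14, adjusted p = 0.00272).

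**Figure D5:**
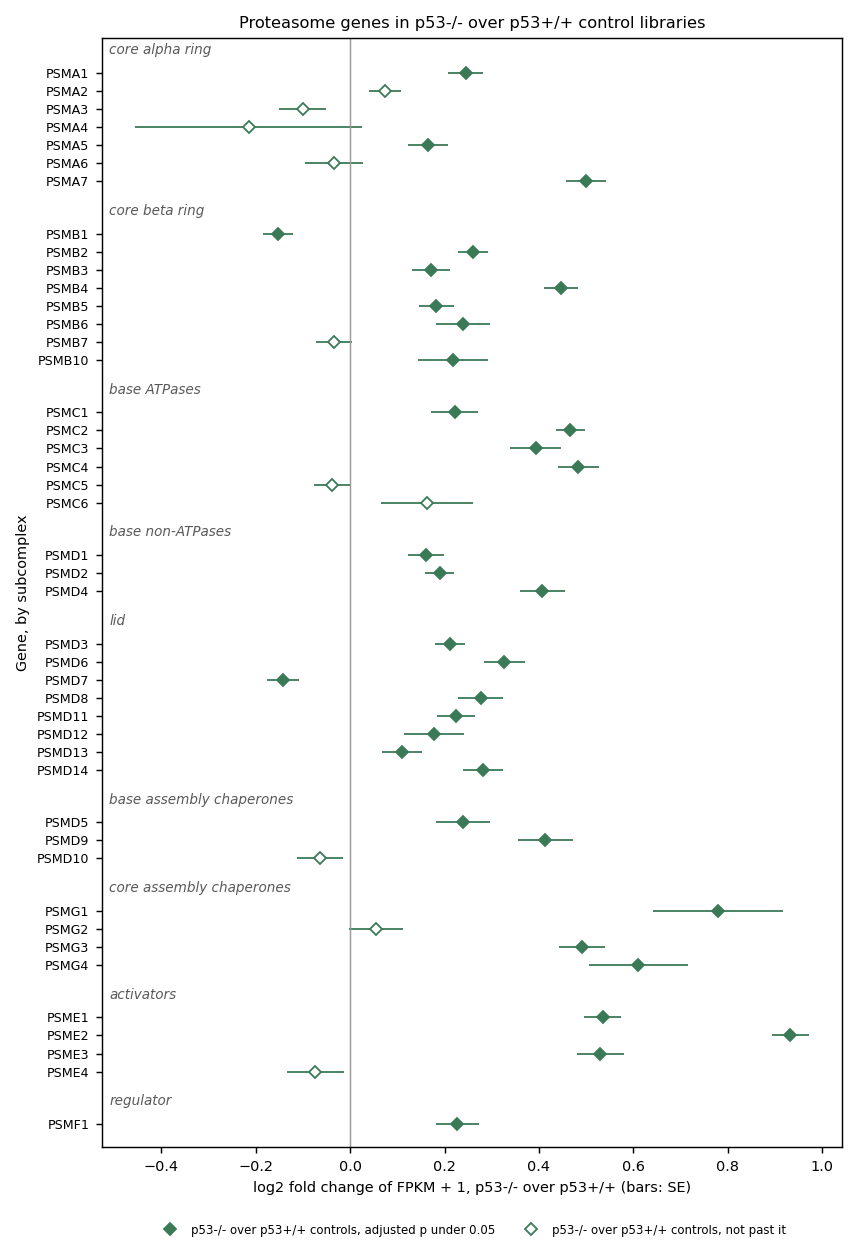
Log2 fold change of FPKM + 1 of the 44 members in p53-/- over p53+/+ control libraries (bars SE, n = 3 per group); filled symbols passed an adjusted p of 0.05. Of the 44, 32 lie to the right of 0 past the threshold and PSMB1 and PSMD7 to the left, with PSME2 at 0.93.

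Of the 36 partner genes 20 were higher and 5 lower in p53-/- controls (median 0.13), or 55.6% and 13.9%, against 36.7% and 26.6% of all genes. ZFAND2A, a stress-induced partner of the 19S particle, was at 4.52 ± 0.876 and 9.66 ± 2.07 FPKM (log2 change 0.94) and ECPAS at 9.32 ± 0.223 and 15.2 ± 1.05 (log2 change 0.65). NFE2L1 was higher in every p53-/- control, at 62.4 to 66.8 FPKM against 41.00 to 43.9 (log2 fold change 0.61, SE 0.04198, adjusted p = 1.27e-07). NGLY1, the glycanase that matures the NFE2L1 protein, was lower, at 12.1 ± 0.528 and 7.24 ± 0.2098 FPKM (log2 fold change -0.67, SE 0.0429, adjusted p = 6.81e-08), and so was the second ubiquitin-activating enzyme UBA6 (log2 change -0.38).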

How the data were processed

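Libraries of poly(A) RNA were read with Illumina HiSeq sequencing, as the series' design text says. The authors deposited a table of 36615 symbols by 12 libraries, with no unit in its header. Its values were read as FPKM as deposited, since they are not whole numbers and ND4L and ND4, which lie on 1 mitochondrial transcript and differ in length, had ratios between 0.970 and 1.06. Reads were placed on hg19, per the submitters' processing notes; no aligner, annotation or strand setting is stated. Groups and replicate numbers come from the titles, and a KO prefix on a column was taken to mean the p53-/- line.

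Values were tested as log2(FPKM + 1) with limma 3.58.1 in R 4.3.3 and a variance trend, in a single fit of all 12 libraries with 1 mean per group (8 residual degrees of freedom). Genes with at least 1 FPKM in at least 3 libraries were kept (13728), and p-values were adjusted by the Benjamini-Hochberg method over all of them, with a threshold of 0.05. Fold changes on this scale understate those of low genes. The code was tested on simulated data.

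All 46 members were matched to the RefSeq gene table. Members, subcomplexes and lists were chosen with earlier results of these data known. Of 37 partner entries 36 were in the table. Named were, per comparison, the 3 largest rises and falls past the threshold, the catalytic subunits, PSMB10, the PSMG genes, members below the filter, and set partner genes with the 2 largest rises and falls; other members named for completeness were chosen after their values were seen, and some genes that the rule names are not reported here. Of 35 pseudogene symbols of members, 3 reached 1 FPKM. Alternatives were a pseudocount of 0.1, no filter, TMM-type scaling (written for FPKM), mitochondrial genes left out, only the groups compared, a replicate block and each library left out. Calls of single genes were followed through them for members only, not for partner genes. No 2 of the 12 libraries were identical.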

Additional observations from a re-analysis of the deposited data

Results flagged for a closer look

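For 10 members the effect of depletion differed between the lines by the test of the difference itself (limma with Benjamini-Hochberg adjustment), which is 22.7% of the members against 32.9% of all genes tested. The effect was higher in p53-/- cells for PSMA1 (0.24 on the log2 scale), PSMA2 (0.17), PSMB1 (0.18), PSMB2 (0.29), PSMC1 (0.29), PSMD14 (0.31) and PSMG2 (0.31). It was lower for PSMD3 (-0.13), PSME3 (-0.29) and PSMG3 (-0.33). PSMA2 was at 50.6 ± 2.28 and 42.8 ± 0.508 FPKM in p53+/+ controls and depleted cells and at 53.3 ± 0.443 and 50.7 ± 0.654 in p53-/- cells (SD, n = 3). Groups of 3 libraries are too small for a search for single outlying libraries.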

How the results depend on the processing

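Over all alternatives run, no result on a member was called in the opposite direction. Of 176 results on single members, 131 kept their call in every alternative; 45 changed it in at least 1, and for 20 of those a call was lost. With mitochondrial genes left out the median over the members was 0.14 in depleted p53+/+ cells, 0.19 in depleted p53-/- cells, 0.019 for the difference and 0.17 between controls, with 4 lower members in p53+/+ depletion, 5 for the difference and 6 between controls. With TMM-type scaling it was 0.092 in p53+/+ depletion, 0.15 in p53-/- depletion and 0.15 between controls, where 7 were lower. Without the filter on low values 5 members were lower in p53-/- depletion. Calls lost without it were PSMC5 and PSMG1 in p53+/+ depletion and PSMB4, PSMB10, PSMC3, PSMC6, PSME1, PSMG1 and PSMG2 in p53-/- depletion. PSMD3 in the contrast of both and PSMB10, PSMD12 and PSMD13 between controls were lost without it too. With only the groups compared, PSMG1 in p53+/+ depletion, PSMC3 in p53-/- depletion and PSMD13 between controls no longer passed. Leaving out 1 library at a time gave medians of 0.0355 to 0.0796 for p53+/+ depletion, 0.10 to 0.15 for p53-/- depletion and 0.016 to 0.046 for the difference. The cause of these shifts was not tested. Pairing of the libraries by replicate number is not stated in the labels and was not seen. Same-numbered libraries of different groups had correlations of their deviations from -0.227 to 0.156 over 18 pairs, and the best match was the same number in 11 of 36 cases. With 3 libraries per group these values cannot exclude that same-numbered libraries were handled together. With the replicate number as a block the counts were 17 higher and 7 lower for p53+/+ depletion, 23 higher and 7 lower for p53-/- depletion, 7 higher and 2 lower for the contrast of both and 31 higher and 2 lower between controls; PSMC3 and PSME1 in p53-/- depletion, PSMD3 in the contrast of both and PSMD13 between controls no longer passed. The depth of the libraries is unknown, so counting error could not be given. The median of all genes moved most between controls under TMM-type scaling, by -0.065 on the log2 scale.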
